A study of Homo sapiens with 6 samples.

Results

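The genes encoding heat shock proteins and chaperonins were examined in HGC-27, an established line of undifferentiated human gastric carcinoma, after knockdown of ACAT2, which encodes a cytosolic acetyl-CoA acetyltransferase that feeds the mevalonate pathway. Members were the protein-coding genes of the deposited table whose symbols begin with HSP90A or HSP90B. Those beginning with HSPA, HSPB, DNAJA, DNAJB, DNAJC or CCT followed by a number were included too, together with HSPD1, HSPE1, HSPH1, TCP1 and CRYAB. This gave 86 of 58735 genes, carrying 85 distinct symbols because HSPA14 is listed under 2 identifiers. The 3 shACAT2 libraries came from cells carrying a hairpin RNA that targets ACAT2 in the vector pSIH-H1-Puro, and the 3 shNC libraries from cells with the control vector, which the methods describe as empty. Both groups had 24 h of exposure to the vector and 7 days of puromycin selection according to the labels. Which of the study's hairpins against ACAT2 was used is not given, and neither is whether the libraries of a group came from separate cultures, so p-values measure the spread between these libraries, which may be technical.

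Heat shock proteins are chaperones, which keep other proteins from aggregating and help them fold. Small heat shock proteins (HSPB) hold unfolded clients without using ATP, HSP70 proteins (HSPA) bind and release exposed segments in an ATP cycle that J-domain proteins (DNAJ) set in motion, and HSP90 proteins act later on nearly folded clients such as kinases and steroid receptors. The chaperonins are closed chambers: CCT in the cytosol, which folds actin and tubulin, and HSPD1 with its lid HSPE1 in mitochondria. The transcription factor HSF1 induces many of these genes on heat or proteotoxic stress, while those of the endoplasmic reticulum (ER) are induced by the unfolded protein response.

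Fragments on genes numbered 14086416 to 16067486 per library, and 2.16 to 2.34% of them lay on members. ACAT2 fell in the shACAT2 libraries, by a log2 fold change of -1.01 (limma adjusted p = 0.0059, or 0.0512 without shNC-3). Within the control group, shNC-2 differed little from shNC-3 (chi-square per gene 1.73, against 12.1 to 46.0 for the other pairs of replicates). The library shACAT2-3 stood apart in holding 7477 genes seen in no other library, against 416 to 657 in the others. Epithelial markers were low, since none of the 5 (EPCAM, KRT8, KRT18, KRT19, CDH1) reached a mean of 1 FPKM (fragments per kilobase of exon, scaled for library size), and their summed level was 0.505 to 0.830 in shNC and 1.44 to 2.22 in shACAT2 libraries. None of 8 gastric mucosa markers and none of 3 endothelial or 5 leukocyte markers reached that mean either, with TFF1, PGC and GKN1 at 0 in every library. All 3 mesenchymal markers were expressed, at a summed 253 to 298 FPKM in shNC and 349 to 467 in shACAT2. VIM made up most of these sums. None of the 3 passed (limma adjusted p = 0.063 for VIM, 0.51 for FN1 and 0.80 for ZEB1). Of 4 fibroblast markers, 3 were expressed, at a summed 99.5 to 104 FPKM in shNC and 176 to 196 in shACAT2, and COL1A1 (limma adjusted p = 0.014), DCN (0.025) and LUM (0.042) were higher in shACAT2. The part of these marker differences in the results on chaperones was not tested. In RNA of whole cultures, a change in the share of cells that express a gene and a change in RNA per cell cannot be told apart.

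The members that rose were 3 small heat shock proteins and 2 J-domain proteins. Of 70 members that reached a mean of 1 FPKM in shNC or in shACAT2 libraries, 5 rose in shACAT2 cells at a limma adjusted p below 0.05, namely CRYAB, HSPB3, HSPB8, DNAJB6 and DNAJC25, and 0 fell. These are 7.14% of the members tested, against 3.3% of all 13832 genes tested that were called higher, while 1.81% of all genes were called lower. At an unadjusted p below 0.05, 12 of the 70 members were higher and 0 lower, where 12.8% of all genes were higher and 10.7% lower. limma-voom on the fragments gave 7 of the 70 members higher and 0 lower, where 4.24% of all genes were called higher and 4.19% lower. At an unadjusted p below 0.05, limma-voom gave 16 of the 70 members higher and 1 lower. The share of all genes by that rule was not counted, so these counts have no background. The replicate number as a block gave 8 of the 70 members higher and 0 lower. The genes called higher over the whole table rose from 456 to 1061 (7.67%), and 4.81% were called lower. The count fell to 3 without shNC-1, to 2 without shNC-2 and to 2 without shNC-3. It also fell to 2 when the close pair shNC-2 and shNC-3 entered as 1 averaged library. In these 4 fits the genes called higher over the whole table fell as well, from 456 to 100, 76, 49 and 63. Without shACAT2-2 the member count was 4, with 95 genes called higher over the table. It stayed at 5 without shACAT2-1 and without shACAT2-3, with 523 and 458 genes. Over all genes, 456 were called higher and 250 lower, a split of 64.6% higher that became 54.4% with upper-quartile scaling and 54.9% with library-size scaling.

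The log2 fold changes of members lay mostly above 0, as the plot of all members by class shows. Their median was 0.13, beside 0.02 for all genes tested, and 50 of 70 (71.4%) were above 0, beside 52.3% of all genes. With upper-quartile or library-size scaling 41 of the 70 were above 0, with member medians of 0.07 and 0.08, while the medians of all genes moved to -0.03 and -0.03, so that the members' median lay 0.10 above that of all genes with either scaling and 0.11 above it on the deposited scale. In 19 members (27.1%) the 3 shACAT2 values lay above every shNC value, beside 16.2% of all genes, and in 2 members, HSPA9 and HSPA12A, they lay below, beside 14.5%. The filter left out 16 members, of which 3 had no fragment in any library and none exceeded a group mean of 0.533 FPKM. HSPA2 and DNAJB5 passed only through the shACAT2 mean, so they had to be higher there; both are among the 19, and HSPA2 is among the 12 with an unadjusted p below 0.05.

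**Figure D1:**
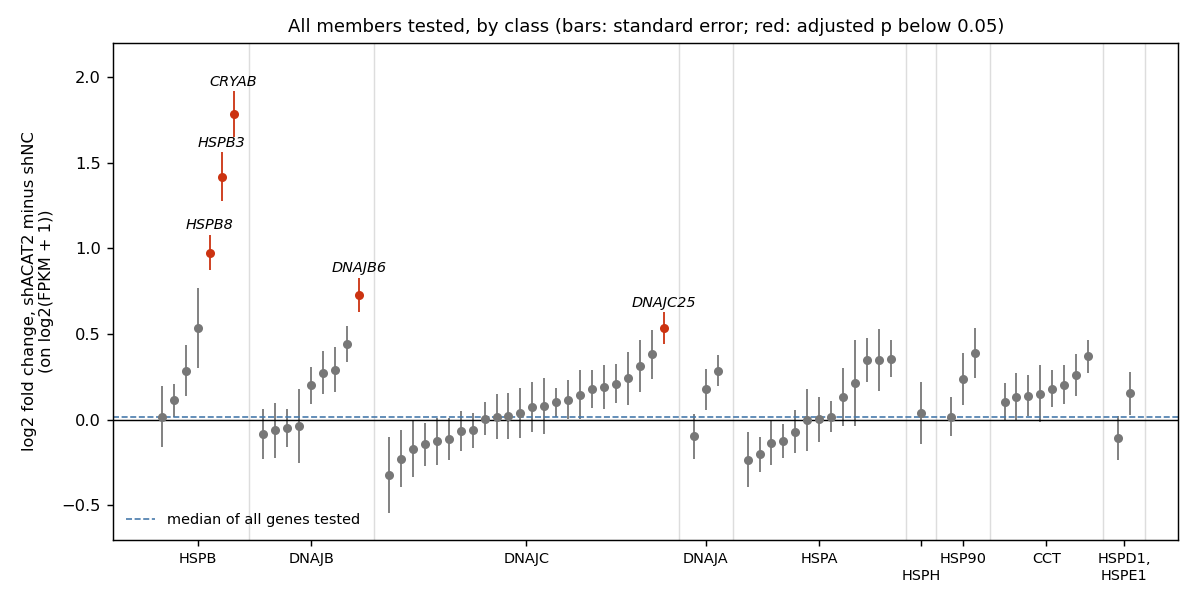
Log2 fold change (shACAT2 minus shNC, on log2(FPKM + 1)) of the 70 members tested, grouped by class along the x axis and ordered by size within a class; bars are standard errors and the dashed line is the median of all genes tested. The 5 members in red (adjusted p below 0.05) reach from 0.53 for DNAJC25 to 1.78 for CRYAB.

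CRYAB, alpha-B-crystallin, is a small heat shock protein of lens and muscle that many tumours also make, and it holds unfolded proteins and filaments such as desmin and vimentin. CRYAB (ENSG00000109846, GRCh38 chr11:111908565-111923722, minus strand) had 5.71, 4.74 and 4.19 FPKM in the shNC libraries, in the order of their replicate numbers as throughout, and 21.5, 17.0 and 19.1 in the shACAT2 libraries. The values rest on 219 to 991 fragments, and every knockdown value lay far above every control value. The means were 4.88 ± 0.770 and 19.2 ± 2.25 FPKM (SD, n = 3), a ratio of 3.94, and the log2 fold change on log2(FPKM + 1) was 1.78 (limma adjusted p = 0.0035, standard error 0.13). It passed under all 15 alternatives, with adjusted p from 0.00043 to 0.031. Its exons share 626 bases (20.6% of them) with HSPB2 on the opposite strand, and the strand setting of the counting is not given. HSPB2, which lies head to head with CRYAB and is best known in muscle, was too low to test, with 2, 2 and 4 fragments in the shNC libraries and 9, 10 and 6 in the shACAT2 libraries. Because of the shared exon bases, HSPB2 fragments cannot be told from CRYAB fragments there.

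HSPB3 is a small heat shock protein that pairs with HSPB2 in muscle. HSPB3 (ENSG00000169271, chr5:54455601-54456384, plus strand) had 1.08, 1.89 and 1.33 FPKM in the shNC libraries and 5.29, 5.06 and 6.04 in the shACAT2 libraries. Each knockdown value exceeded every control value, but the counts behind them were small, at 13 to 24 fragments in shNC and 63 to 71 in shACAT2 libraries. The ratio of means was 3.81 and the log2 fold change 1.42 (limma adjusted p = 0.0054, standard error 0.14), and it passed under all 15 alternatives, with adjusted p up to 0.047. The pseudocount of 1 FPKM holds back the fold change of so low a gene, and limma-voom on fragments gave 1.87.

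HSPB8 works with the co-chaperone BAG3 to send misfolded proteins to autophagy. HSPB8 (ENSG00000152137, chr12:119178642-119221131, plus strand) had 8.52, 7.63 and 7.97 FPKM in the shNC libraries and 18.3, 15.2 and 16.9 in the shACAT2 libraries. The groups lay well apart, and the spread within each was small. The means were 8.04 ± 0.448 and 16.8 ± 1.59 FPKM (SD, n = 3), a ratio of 2.09, with a log2 fold change of 0.98 (limma adjusted p = 0.0063, standard error 0.10). Over the 15 alternatives the adjusted p rose to at most 0.056, and the call was lost without shNC-2, without shNC-3 (the highest of these), and with those libraries averaged (0.051). Its partner BAG3 did not pass, at 12.2, 11.1 and 10.3 FPKM in shNC and 11.7, 10.0 and 8.76 in shACAT2 (log2 fold change -0.13, limma adjusted p = 0.58).

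DNAJB6 is a J-domain protein known for holding back the aggregation of polyglutamine proteins. DNAJB6 (ENSG00000105993, chr7:157335381-157417439, plus strand) had 6.18, 5.72 and 5.34 FPKM in the control libraries and 10.4, 9.25 and 11.0 in the knockdown libraries. No shNC library came near the lowest shACAT2 library. The ratio of means was 1.77 and the log2 fold change 0.73 (limma adjusted p = 0.014, standard error 0.10), and its call was lost when any 1 shNC library was left out or when shNC-2 and shNC-3 were averaged, with adjusted p up to 0.098. DNAJC25 is a less studied J-domain protein. DNAJC25 (ENSG00000059769, chr9:111631352-111654351, plus strand) had 5.63, 5.80 and 6.06 FPKM in shNC and 8.58, 8.33 and 9.82 in shACAT2 libraries, again without overlap. The log2 fold change was 0.53 (limma adjusted p = 0.028, standard error 0.09), and 7 of 15 alternatives lost the call: upper-quartile scaling, no filter, each shNC library left out, shACAT2-2 left out and the averaged controls, with adjusted p up to 0.14. It shares 358 exon bases with the readthrough gene DNAJC25-GNG10, which held 0 fragments in every library.

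**Figure D2:**
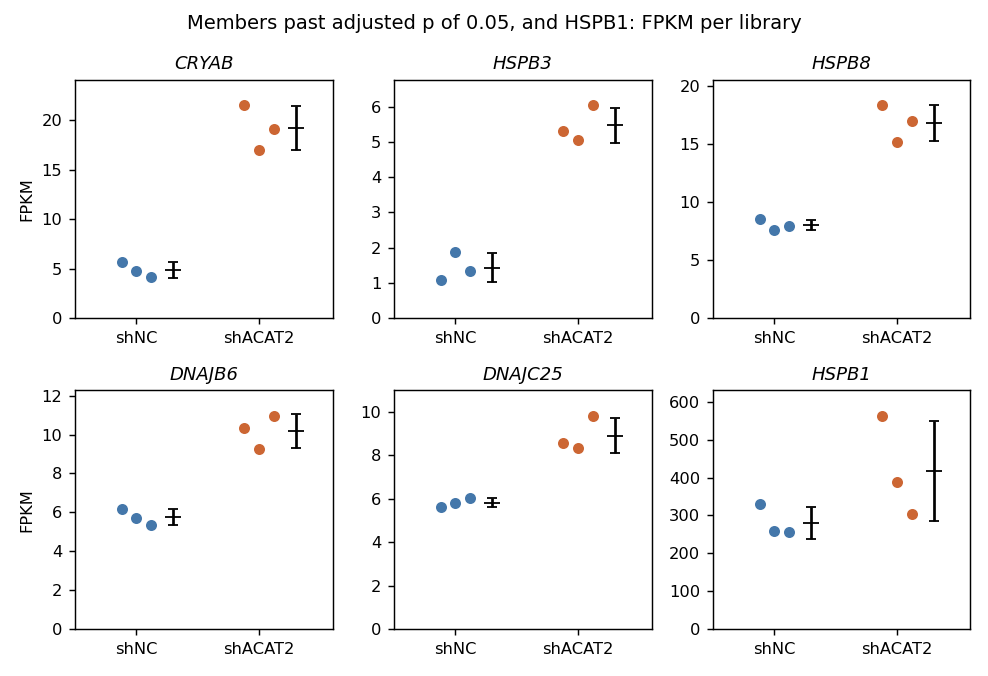
FPKM in each library (points) for the 5 members that passed and for HSPB1, with shNC in blue and shACAT2 in orange; black marks give the mean and SD of 3 libraries and every axis starts at 0. The groups do not overlap in the first 5 panels, whereas the lowest shACAT2 value of HSPB1 (303 FPKM) lies below its highest shNC value (330 FPKM).

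The bases before the starts of these genes are shown because heat-inducible promoters carry the units that HSF1 binds, alternating GAA and TTC blocks. RefSeq windows (GRCh38.p14) were found for 74 of 85 member symbols, 16 of them with several starts, and 250 bases before each start were searched on both strands. CRYAB and HSPB2 had no entry. The printed windows are on the gene's own strand, 5′ to 3′, and capitals mark the matches. The first 4 belong to members that rose and HSPA1A is shown as a heat-inducible HSP70 gene that did not pass:
HSPB8, chr12:119178681-119178930 (plus): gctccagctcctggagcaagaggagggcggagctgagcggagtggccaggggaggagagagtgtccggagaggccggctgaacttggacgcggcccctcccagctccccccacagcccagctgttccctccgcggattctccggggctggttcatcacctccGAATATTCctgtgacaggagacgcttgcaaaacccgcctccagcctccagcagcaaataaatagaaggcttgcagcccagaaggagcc
HSPB3, chr5:54455449-54455698 (plus): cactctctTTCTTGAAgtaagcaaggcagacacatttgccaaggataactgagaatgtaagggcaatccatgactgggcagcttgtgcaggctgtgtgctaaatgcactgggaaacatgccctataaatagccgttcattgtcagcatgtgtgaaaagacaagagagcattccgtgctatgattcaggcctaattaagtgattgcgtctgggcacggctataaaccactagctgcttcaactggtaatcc
DNAJB6, chr7:157336754-157337003 (plus): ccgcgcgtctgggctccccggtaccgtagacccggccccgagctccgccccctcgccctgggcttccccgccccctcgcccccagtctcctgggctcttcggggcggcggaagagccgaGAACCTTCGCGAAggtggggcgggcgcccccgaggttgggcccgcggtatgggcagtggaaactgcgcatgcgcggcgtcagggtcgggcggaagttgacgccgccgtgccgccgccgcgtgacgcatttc
DNAJC25, chr9:111631084-111631333 (plus): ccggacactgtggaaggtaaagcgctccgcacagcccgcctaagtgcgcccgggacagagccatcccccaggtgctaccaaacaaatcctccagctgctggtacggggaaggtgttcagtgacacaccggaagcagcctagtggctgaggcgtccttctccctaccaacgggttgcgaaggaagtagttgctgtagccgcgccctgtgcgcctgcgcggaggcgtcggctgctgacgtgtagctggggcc
HSPA1A, chr6:31815293-31815542 (plus): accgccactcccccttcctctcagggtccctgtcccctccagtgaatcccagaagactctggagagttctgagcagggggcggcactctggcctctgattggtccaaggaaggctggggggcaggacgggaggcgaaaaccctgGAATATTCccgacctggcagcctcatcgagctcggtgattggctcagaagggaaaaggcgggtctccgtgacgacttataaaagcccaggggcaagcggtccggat

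The HSPB8 window held 1 GAANNTTC pair, 88 to 81 bases before the start, and HSPA1A held 1 at 106 to 99 bases. In HSPB3 the reverse order TTCNNGAA lay 242 to 235 bases before the start. DNAJB6 held 3 alternating blocks, 131 to 119 bases before the start, in which both pairs overlap, and DNAJC25 held none of these motifs. GAANNTTC occurred in 18 of 95 member windows (18.9%), against 5.78% of all 35116 windows. TTCNNGAA occurred in 12 (12.6%), against 6.62%. The 3-block motif TTCNNGAANNTTC, read on either strand, occurred in 6 (6.32%), against 0.44%, namely DNAJB6, HSP90AA1, HSP90AB1, HSPA6, HSPA8 and HSPD1. Of these, HSPA6 was not tested, DNAJB6 passed and the other 4 did not. A match to these letters describes the window and was not tested as a binding site.

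The other small heat shock proteins did not pass. HSPB1 (HSP27), the most abundant of them, stabilises actin and is induced by heat. It had 330, 258 and 255 FPKM in shNC and 563, 388 and 303 in shACAT2 libraries, so the groups overlapped, although shACAT2 was higher within each of the 3 replicate numbers. The log2 fold change was 0.54 with a standard error of 0.24 (limma adjusted p = 0.23, or 0.058 with the replicate block). HSPB7, a cardiac small heat shock protein, had 1.69 to 2.09 FPKM in shNC and 1.91 to 3.17 in shACAT2 libraries, a log2 fold change of 0.29 (limma adjusted p = 0.30). HSPB11, in fact a subunit of the ciliary transport machinery, had a log2 fold change of 0.11 and HSPB6, a muscle small heat shock protein, one of 0.02, which turned negative under both other scalings. All 7 tested HSPB members were above 0 on the deposited scale, beside 52.3% of all genes, and 6 with either other scaling. Under each scaling 3 of the 7 passed, beside 3.3% of all genes called higher on the deposited scale. The summed level of the class was 282 to 361 FPKM in shNC and 362 to 625 in shACAT2, of which HSPB1 made up most.

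Chaperones of the ER had mostly positive log2 fold changes, but 1 of them passed. Of 13 ER members on a list that holds HSPA5, HSPA13, HSP90B1 and J-domain proteins of the ER, 1 passed (DNAJC25) and 0 were lower. Of all genes, 3.3% were called higher. An unadjusted p below 0.05 was reached by 5, all higher (12.8% of all genes were higher by that rule). Log2 fold changes were above 0 in 10 under the deposited, upper-quartile and library-size scales, beside 52.3% of all genes on the first. The median of the 13 was 0.32, beside 0.02 for all genes. With the replicate block, 3 passed, adding DNAJB11 and HSPA5, beside 7.67% of all genes called higher. The summed level was 333, 330 and 336 FPKM in the shNC libraries and 428, 429 and 428 in the shACAT2 libraries. The sums did not overlap with upper-quartile scaling either, at 330 to 348 and 388 to 450, and HSPA5 and HSP90B1 made up most of them.

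HSPA5 (BiP) is the HSP70 of the ER and a brake on its stress sensors. It had 189, 172 and 173 FPKM in shNC and 245, 213 and 227 in shACAT2 libraries, which do not overlap. The log2 fold change was 0.36 (limma adjusted p = 0.11, or 0.043 with the replicate block; standard error 0.11). HSP90B1 (GRP94), the HSP90 of the ER, had 72.0, 87.7 and 88.9 FPKM in shNC and 95.5, 125.9 and 106.1 in shACAT2 libraries, with the lowest knockdown value above the highest control value. Its log2 fold change was 0.39 (limma adjusted p = 0.17, standard error 0.15). DNAJB11, a soluble J-domain partner of HSPA5, had 11.99, 11.25 and 11.28 FPKM in shNC and 17.96, 14.96 and 15.13 in shACAT2 libraries, also without overlap. Its log2 fold change was 0.44 (limma adjusted p = 0.061, or 0.032 with the block; standard error 0.10), and 4 of 15 alternatives called it, namely both other scalings, limma-voom and the block. DNAJB11 shares 496 exon bases with an antisense gene, 381 with TBCCD1 on the opposite strand and 451 with the protein-coding AC068631.2 on its own strand, so its count is uncertain. DNAJC3, which also restrains a kinase of the stress response, and DNAJC1, a membrane J-domain protein, had log2 fold changes of 0.32 and 0.38 (limma adjusted p = 0.27 and 0.17), while DNAJB12, a membrane J-domain protein, had -0.05. Of their partners outside the family, HYOU1, an exchange factor of HSPA5, had a log2 fold change of 0.38 (limma adjusted p = 0.16, or 0.041 with the block) and SIL1, another, had 0.32 (adjusted p = 0.36).

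The windows of HSPA5 and HSP90B1 are shown because they were the 2 member genes with the ER stress element, CCAAT and CCACG spaced by 9 bases, which occurred in 26 of 35116 windows (0.07%):
HSPA5, chr9:125241344-125241593 (minus): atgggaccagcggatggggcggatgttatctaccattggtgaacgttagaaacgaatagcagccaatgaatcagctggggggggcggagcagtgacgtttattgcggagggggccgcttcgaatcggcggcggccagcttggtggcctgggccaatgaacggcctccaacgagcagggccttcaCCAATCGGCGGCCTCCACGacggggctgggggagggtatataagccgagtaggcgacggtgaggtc
HSP90B1, chr12:103930160-103930409 (plus): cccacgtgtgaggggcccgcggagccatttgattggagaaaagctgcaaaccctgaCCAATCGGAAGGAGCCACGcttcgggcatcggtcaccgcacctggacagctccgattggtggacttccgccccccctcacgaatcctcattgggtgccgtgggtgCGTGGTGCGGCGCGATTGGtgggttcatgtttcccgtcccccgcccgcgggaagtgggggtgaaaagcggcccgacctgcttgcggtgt
The match lay 66 to 48 bases before the HSPA5 start, and HSP90B1 held 2, at 194 to 176 and, on the other strand, at 89 to 71 bases.

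**Figure D3:**
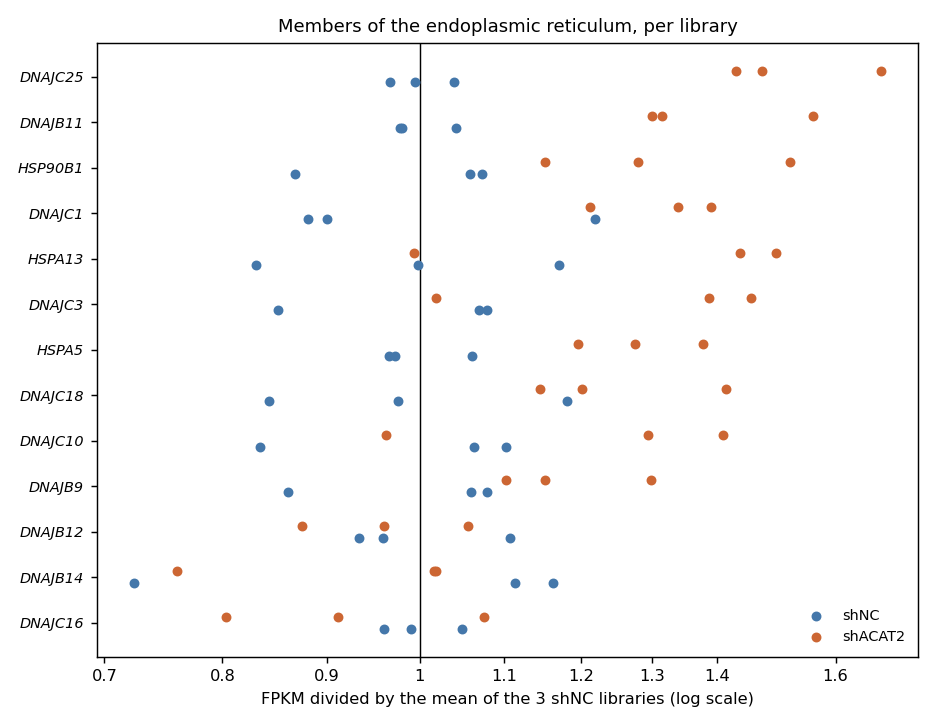
FPKM of each of the 13 ER members in each library, divided by the mean of the 3 shNC libraries, on a log scale; blue points are shNC and orange points shACAT2 libraries. In 5 members (DNAJC25, DNAJB11, HSP90B1, HSPA5 and DNAJB9) every orange point lies to the right of every blue point. The same holds for 16.2% of all genes tested.

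The most abundant members, which are cytosolic, did not pass. HSP90AB1, the constitutive HSP90, had 1376, 1212 and 1228 FPKM in shNC and 1379, 1206 and 1277 in shACAT2 libraries, so the groups overlapped fully. Its log2 fold change was 0.02 (limma adjusted p = 0.94, standard error 0.11) and turned negative with either other scaling. HSPA8 (HSC70), the constitutive HSP70, had 670, 577 and 582 FPKM in shNC and 625, 520 and 598 in shACAT2 libraries, a log2 fold change of -0.07 (limma adjusted p = 0.78, standard error 0.12). HSP90AA1, the inducible HSP90, had 454 to 576 FPKM in shNC and 543 to 708 in shACAT2 libraries (log2 fold change 0.24, standard error 0.15, limma adjusted p = 0.39). HSPH1, an HSP110 that recharges HSP70 with ATP, had a log2 fold change of 0.04 (standard error 0.18) that turned negative with either other scaling. No member of the HSPA class passed (13 tested). At an unadjusted p below 0.05, 2 of them, HSPA5 and HSPA2, were higher, beside 12.8% of all genes. HSPA2, a testis HSP70 that passed the filter only through shACAT2, had 0.826, 0.683 and 0.934 FPKM in shNC and 1.32, 1.23 and 1.36 in shACAT2 libraries (log2 fold change 0.35, limma adjusted p = 0.16). HSPA12A, a distant HSP70 relative, was at 1.64 to 1.81 FPKM in shNC and 1.34 to 1.37 in shACAT2 libraries, with all knockdown values lower, but did not pass (log2 fold change -0.20, limma adjusted p = 0.29).

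Genes known as HSF1 targets on heat were counted as a list, chosen for that role. Of 20, 19 were tested. Of these, 1 rose (CRYAB) and 0 fell, beside 3.3% of all genes called higher and 1.81% lower. At an unadjusted p below 0.05, 1 was higher and 0 lower, where 12.8% of all genes were higher and 10.7% lower. With limma-voom 1 was called higher and 0 lower, beside 4.24% and 4.19% of all genes. Log2 fold changes were above 0 in 15 on the deposited scale, beside 52.3% of all genes, but in 11 with either other scaling. HSPA1A and HSPA1B, the stress-inducible HSP70 copies, are nearly identical, so their split is uncertain. HSPA1B had 21.7, 19.5 and 17.8 FPKM in shNC and 27.2, 20.9 and 17.6 in shACAT2 libraries, and HSPA1A had 2.71, 3.28 and 3.29 against 5.38, 4.29 and 2.15. Both overlapped between groups (limma adjusted p = 0.68 and 0.66). HSPA6, a strictly heat-induced HSP70, stayed at 0.254 to 0.587 FPKM and was not tested. DNAJB1 (HSP40), the main J-domain partner of inducible HSP70, had 40.9, 36.7 and 35.3 FPKM in shNC and 52.4, 43.2 and 42.1 in shACAT2 libraries, without overlap, but a limma adjusted p of 0.24 (log2 fold change 0.28). Of 5 regulators of the response 0 passed, and 0 passed with limma-voom. At an unadjusted p below 0.05, 1 was higher and 0 lower, where 12.8% of all genes were higher and 10.7% lower. HSF1 itself had a log2 fold change of 0.21 (limma adjusted p = 0.57, standard error 0.19).

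Other J-domain proteins did not pass. DNAJA1, the abundant farnesylated partner of HSPA8, had 113 to 128 FPKM in shNC and 127 to 153 in shACAT2 libraries (log2 fold change 0.18, limma adjusted p = 0.42), and its relative DNAJA2 had 16.8 to 18.0 and 20.3 to 22.3 FPKM, without overlap (0.29, adjusted p = 0.13). DNAJA3, a mitochondrial J-domain protein, had a log2 fold change of -0.10. DNAJB5, which passed the filter only through shACAT2, had 0.754 to 0.817 FPKM in shNC and 1.03 to 1.35 in shACAT2 libraries (0.29, limma adjusted p = 0.23). In the DNAJC class, 24 of 29 were tested. Log2 fold changes were above 0 in 16, beside 52.3% of all genes, and in 12 with either other scaling. DNAJC8, a splicing-associated member, had 0.18 (limma adjusted p = 0.37), DNAJC5, the cysteine string protein of vesicles, 0.04, and DNAJC11, of the mitochondrial inner membrane organising machinery, -0.14 (adjusted p = 0.54). The lowest log2 fold change of any member was -0.32, for DNAJC13, an endosomal J-domain protein, with 6.08 to 8.37 FPKM in shNC and 3.86 to 7.07 in shACAT2 libraries, overlapping (limma adjusted p = 0.43). DNAJC13 was named after its values were seen.

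All 8 subunits of the CCT ring had log2 fold changes above 0 on the deposited, upper-quartile and library-size scales, and 0 passed. On the first scale, where 52.3% of all genes were above 0, the subunits lay between 0.11 (CCT6A) and 0.37 (TCP1). The median was 0.17, beside 0.02 for all genes. At an unadjusted p below 0.05, 1 subunit, TCP1, was higher, beside 12.8% of all genes. TCP1, the alpha subunit, had 69.6, 66.8 and 68.1 FPKM in shNC and 93.8, 85.9 and 85.6 in shACAT2 libraries, well apart. Its log2 fold change was 0.37 (limma adjusted p = 0.082, standard error 0.10), past the threshold with the replicate block (0.038) and with limma-voom (0.048). TCP1 and ACAT2 share 397 exon bases on opposite strands, 8.05% of the exon bases of TCP1, so fragments there cannot be assigned without strand. ACAT2 had 935, 818 and 944 fragments in shNC and 404, 390 and 390 in shACAT2 libraries, against 5249 to 7041 for TCP1, and moved the other way. CCT4 and CCT5 also did not overlap between groups, with CCT5 at 117, 107 and 108 FPKM in shNC and 152, 127 and 122 in shACAT2 libraries (log2 fold change 0.26, limma adjusted p = 0.26) and CCT4 at 177.7 to 196.8 and 200.8 to 234.2 (0.20, adjusted p = 0.33). CCT5 shares 1757 exon bases (30.09%) with an antisense gene. CCT4 shares 275 (9.72%) with an antisense gene and 81 with COMMD1 on the opposite strand. Both counts are therefore uncertain in the same way as that of TCP1. The remaining subunits CCT2, CCT3, CCT7 and CCT8 had log2 fold changes of 0.18, 0.13, 0.15 and 0.14, and their values overlapped between groups. Of 9 tested helpers of the ring, the prefoldin and phosducin-like proteins, 0 passed. At an unadjusted p below 0.05, 3 were higher and 0 lower, where 12.8% of all genes were higher and 10.7% lower. With the block 3 were called higher (PFDN4, PDCL3 and TXNDC9), beside 7.67% of all genes. PFDN4, a prefoldin subunit that hands unfolded actin and tubulin to CCT, had a log2 fold change of 0.59 (limma adjusted p = 0.056) and also passed with limma-voom (0.044) and with library-size scaling.

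**Figure D4:**
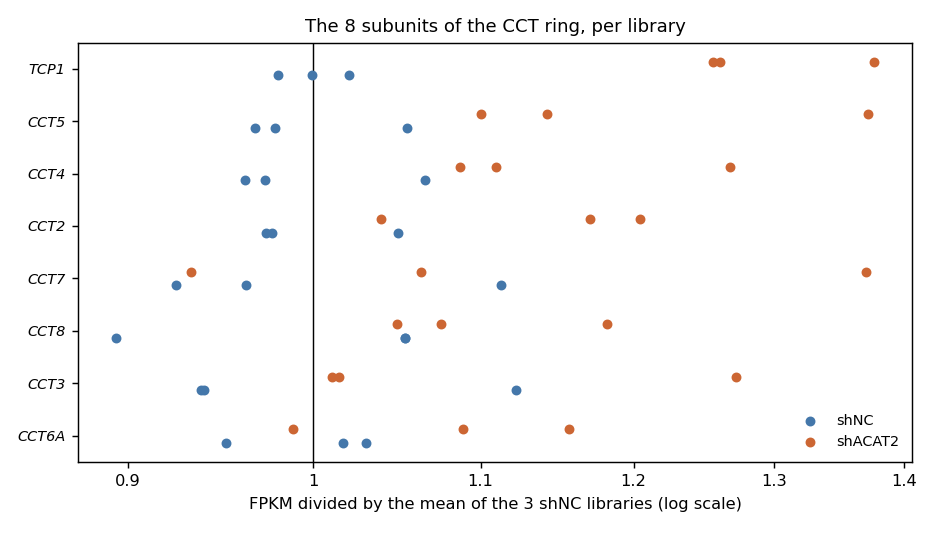
FPKM of the 8 CCT ring subunits in each library, divided by the mean of the 3 shNC libraries, on a log scale; blue points are shNC and orange points shACAT2 libraries. Groups separate in TCP1, CCT5 and CCT4, with shACAT2 above as in 16.2% of all genes tested, and overlap in the other 5 subunits.

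Mitochondrial chaperones had mostly negative log2 fold changes, with a median of -0.105, and did not pass. Of 9 tested, 3 had log2 fold changes above 0 under each scaling, beside 52.3% of all genes on the deposited scale. In either direction 0 passed, and 0 had an unadjusted p below 0.05. With limma-voom also 0 passed. HSPD1 (HSP60), the mitochondrial chaperonin, had 328, 381 and 388 FPKM in shNC and 315, 380 and 326 in shACAT2 libraries, overlapping, with a limma adjusted p of 0.67. HSPE1, its lid, had 36.5, 35.1 and 35.6 FPKM in shNC and 46.9, 36.6 and 36.8 in shACAT2 libraries, without overlap, at a log2 fold change of 0.15 (limma adjusted p = 0.51), and 281 exon bases of the 2 genes overlap on opposite strands. HSPA9 (mortalin), the mitochondrial HSP70, had 91.2, 91.2 and 91.6 FPKM in shNC and 84.3, 88.9 and 78.6 in shACAT2 libraries. All knockdown values were lower, the 1 such case among the 9, beside 14.5% of all genes. HSPE1 and DNAJC15 (named after its values were seen) lay above in all 3, beside 16.2% of all genes. The log2 fold change of HSPA9 was -0.12 (limma adjusted p = 0.51, standard error 0.10).

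Among partners outside the family, ST13 stood apart. ST13 (HIP), which binds the HSP70 ATPase domain and steadies its client-bound form, had 27.5, 26.8 and 28.1 FPKM in shNC and 74.0, 68.9 and 65.5 in shACAT2 libraries, so each knockdown value was above 2 times any control value. The log2 fold change was 1.31 (limma adjusted p = 0.0035, standard error 0.10), and it passed under all 15 alternatives. It was the 1 gene of 14 exchange factors and partners of HSP70 that passed, and 0 fell. At an unadjusted p below 0.05, 3 of the 14 were higher and 0 lower. Of 15 tested genes on a list of HSP90 co-chaperones, 1 passed and 0 fell, with 3 higher and 1 lower at an unadjusted p below 0.05. That list also counts TRAP1, which is itself the mitochondrial HSP90. Of all genes, 3.3% were called higher and 1.81% lower, and 12.8% were higher and 10.7% lower at an unadjusted p below 0.05. SUGT1, a co-chaperone for kinetochore and immune receptor clients, had 4.504, 5.199 and 4.947 FPKM in shNC and 6.651, 7.191 and 6.641 in shACAT2 libraries, without overlap. Its limma adjusted p was 0.0486 (log2 fold change 0.41), and 14 of 15 alternatives lost the call, with adjusted p up to 0.19. STIP1 (HOP), which joins HSP70 to HSP90, had 83.2 to 103.8 FPKM in shNC and 93.4 to 113.9 in shACAT2 libraries (limma adjusted p = 0.59).

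How far the calls depended on single libraries and on the settings is shown by the adjusted p of 8 members under each alternative. CRYAB and HSPB3 stayed past the threshold throughout. DNAJB6 and DNAJC25 lost it whichever shNC library was left out, and DNAJC25 also without shACAT2-2. HSPB8 lost it without shNC-2 or shNC-3. DNAJB11, TCP1 and HSPA5 passed with the block.

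**Figure D5:**
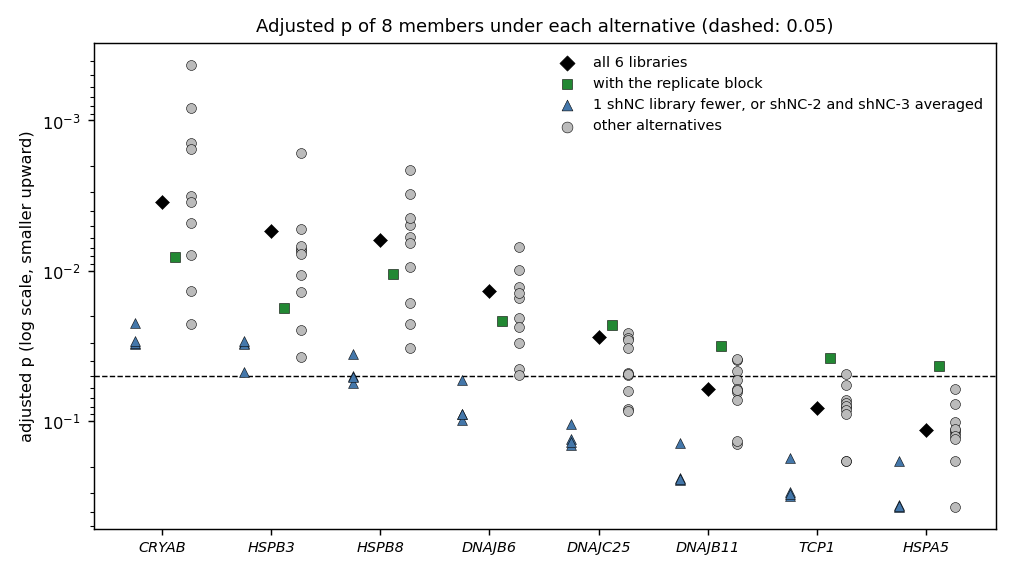
Adjusted p (y axis, log scale with smaller values upward) of 8 members under each alternative, with the dashed line at 0.05; diamonds are all 6 libraries, squares the replicate block, triangles fits with 1 shNC library fewer or shNC-2 and shNC-3 averaged, and circles the rest. All points of CRYAB and HSPB3 lie above the line, with the lowest at 0.031 and 0.047.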

How the data were processed

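Total RNA of 3 shNC and 3 shACAT2 HGC-27 libraries was sequenced, and groups were taken from the labels. The authors deposited FPKM values for 58735 genes. The submitters' processing notes name HISAT2 2.0.5, featureCounts 1.5.0-p3, DESeq2 1.20.0 and hg38 without roles, and the strand setting is not given in the sources used here. All gene coordinates and lengths equal GENCODE 29. Of the 86 members, 35 share exon bases with a gene on the opposite strand, where fragments cannot be assigned without strand. Among them are HSPB6 (38.18% of its exon bases), CCT5 (30.09%) and DNAJC11 (27.92%). Fragments were read back from FPKM and length, and 100.0% came out whole (within 0.1). Pseudogenes of members held 0.277 to 0.405% of the fragments that lay on members and these pseudogenes together.

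limma 3.58.1 in R 4.3.3, with a trend, was fitted to log2(FPKM + 1) for 13832 genes, those whose mean reached 1 FPKM in at least 1 group, with Benjamini-Hochberg adjustment at 0.05 over all of them. On this scale, low genes show too small a fold change. The limma script was tested on simulated data. Python 3.11.15, numpy 2.4.6 and pandas 2.3.3 did the rest. Deviations from the group means correlated between samples of equal replicate number (0.445, 0.126 and 0.171), so the numbers were taken as pairs and a fit with the replicate block was added, while the reported calls come from the fit without it. However, shNC-2 correlated more with shACAT2-3 (0.198) than with shACAT2-2 (0.126), and shNC-3 also correlated with shACAT2-2 (0.141). The labels give replicate numbers without calling them pairs, so calls made with the block alone are uncertain.

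The members and lists were chosen with earlier results of these data known. Named were members past the threshold, every tested member of the HSPB, HSP90, HSPH, HSPD1/HSPE1 and CCT classes, the 3 most abundant and the 3 with the smallest p of the other classes, ACAT2, and listed partners past the threshold. Other genes were named after their values were seen. The alternatives tried were 2 other scalings (upper quartile and library size), 3 filters, a pseudocount of 0.1, limma-voom, the replicate block, each library left out, shNC-2 and shNC-3 averaged, and the fold threshold used in the study.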

Additional observations from a re-analysis of the deposited data

How the results depend on the processing

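In place of the 5 members called higher, 8 were called with the replicate block and 2 with the close control pair averaged. When 1 library was left out, 2 to 5 were called. With a log2 fold change above 1 and an unadjusted p below 0.05, 2 were called (2.86%, beside 0.983% of all genes). Among members, listed partners and ACAT2, the block changed no call besides those of DNAJB11, TCP1, HSPA5 and the listed partners HYOU1, PFDN4, PDCL3 and TXNDC9. No member was called lower under any alternative. The median log2 fold change of members, 0.13, was 0.0702 with upper-quartile scaling, 0.0762 with library-size scaling, 0.0833 without a filter, 0.0800 with limma-voom, and 0.0961 to 0.159 when 1 library was left out. With upper-quartile scaling, library-size scaling and limma-voom, the median of all genes moved by -0.047, -0.043 and -0.051, beside -0.055, -0.049 and -0.045 for the members. The number of genes called over the whole table, 706, was 209 without a filter, 1167 with limma-voom, 1727 with the block, 83 with the averaged controls and 63 to 862 with 1 library left out. Of the alternative values of 43 named genes, 577 kept their direction and side of the threshold, 29 lost the threshold, 8 gained it and 30 changed sign. HSPA2 passed with at least 10 fragments in every library (adjusted p = 0.042).

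Members that changed sign had small log2 fold changes and did not pass. With each of these 3 alternatives, 9 members went from positive to negative. DNAJC9, DNAJC24, DNAJC27, HSPA4 and 1 of the HSPA14 entries are 5 of them, outside the rule for named genes. For the other 4, the values with upper-quartile scaling, library-size scaling and limma-voom were -0.017, -0.011 and -0.0093 for DNAJC5, -0.042, -0.035 and -0.035 for HSP90AB1, -0.027, -0.023 and -0.026 for HSPB6, and -0.015, -0.0092 and -0.011 for HSPH1. With the averaged controls they were -0.0062 for DNAJC5, -0.011 for HSP90AB1 and -0.052 for HSPB6. When single libraries were left out, log2 fold changes ran from -0.0014 to 0.274 for CCT7, -0.204 to 0.0025 for DNAJA3, -0.109 to 0.020 for DNAJB12, -0.067 to 0.158 for DNAJC5, -0.033 to 0.075 for HSP90AB1, -0.124 to 0.0074 for HSPA8, -0.110 to 0.154 for HSPB6 and -0.094 to 0.190 for HSPH1.

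With 3 libraries a group, and shNC-2 and shNC-3 so close, the control spread rests on few independent values. Members with few fragments, such as HSPB2, could not be tested.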
